A study of Mus musculus with 7 samples.

Results

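A small set of genes that most tissues use freely is kept nearly silent in the insulin-producing β-cells of the pancreas, and 10 of these genes were followed here in sorted β-cells of lean and diabetic mice. The members are a list of names, which applies no threshold on measured values but was drawn up with earlier results of these data known: Ldha, Slc16a1, Acot7, Oat, Igfbp4, Pdgfra, Smad3, Cxcl12, Maf and Zyx. All 10 were found among the 35013 gene symbols of the table. RNA-seq libraries, 1 per mouse, came from 2 KO_db/db, 2 db/db and 3 db/+ mice. All 3 groups carried an insulin-promoter Cre (RIP-Cre, the Herrera line) and a floxed tdTomato reporter on 1 allele, so both are common to cases and controls. KO_db/db mice were homozygous for a floxed Aldh1a3 allele and for the Lepr db mutation, db/db mice were heterozygous for floxed Aldh1a3 and homozygous for db, and db/+ mice were heterozygous for both. Thus the db/db and db/+ controls carried 1 floxed Aldh1a3 allele and the Cre as well. The db mutation removes the signalling leptin receptor in every tissue, and homozygous animals become obese and diabetic, whereas db/+ animals stay lean. Mice of both sexes were used as adults, after fasting, and the age of each mouse is not in the labels.

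In a β-cell, glucose is broken down to pyruvate and nearly all of that pyruvate is burned in mitochondria, which is how the cell reads blood sugar and sets insulin release. Lactate dehydrogenase A, encoded by Ldha, and the monocarboxylate carrier MCT1, encoded by Slc16a1, would divert pyruvate to lactate or let circulating pyruvate and lactate into the cell, and gain of MCT1 in β-cells is a known cause of insulin release during exercise. Other members act in fatty acid handling, amino acid metabolism, growth factor signalling and the cytoskeleton, and loss of this silencing is described in diabetic islets.

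The libraries held between 27496645 and 35852785 counts (median 31355436), so that 3 counts, taken as the detection floor, corresponded to 0.0717 to 0.123 CPM (counts relative to the library total, scaled with TMM factors from edgeR). Aldh1a3, the gene floxed by the design, was at 4.97 and 7.89 CPM in KO_db/db, at 98.4 and 194 CPM in db/db and at 0.0729 to 0.589 CPM in db/+. Insulin transcripts made up 24.4% and 23.4% of the counts in KO_db/db, 23.5% and 21.8% in db/db, and 32.2% to 36.1% in db/+. Their share was thus lower in every diabetic library than in every lean library. RNA of acinar cells, the enzyme-producing cells that surround islets, was unequal: 20 acinar markers took 9.89% and 1.07% of the counts in KO_db/db mice 1 and 2, 0.0362% and 0.0238% in db/db, and 0.00698% to 0.0196% in db/+. Of the 18 acinar markers tested, 17 rose in KO_db/db and 1 rose in db/db against db/+, by edgeR with Benjamini-Hochberg adjusted p under 0.05. Over all genes, 20.5% and 19.9% were called higher in these comparisons. Between KO_db/db and db/db none of the 18 was called, although their median log2 fold change was 8.32 and 17 had an unadjusted p under 0.05. A lack of calls in that comparison therefore does not show that levels were alike. Library db/+ 3 held 2911 counts of Y-linked genes and the others 20 to 79, so it alone had a male signal. The sex of the mouse and the group cannot be told apart in full, since no other group has a library of that kind.

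The members were far below genes of the mature β-cell when levels were divided by the length of the longest annotated coding transcript, which allows genes to be compared. In db/+ the mean level ran from 0.0104 CPM per kilobase for Pdgfra and 0.0109 for Slc16a1 to 1.05 for Zyx, and Ldha stood at 0.0732. On the same scale MafA, a transcription factor of mature β-cells, was at 142 and basigin (Bsg), the partner that takes monocarboxylate carriers to the membrane, at 333. By CPM in db/+, the members stood above 25.05% (Slc16a1) to 50.41% (Zyx) of the 20376 genes with a count in some library. The summed level of the 10 members was 6.24 to 9.04 CPM in db/+, 15.8 and 23.6 CPM in db/db and 33.6 and 15.9 CPM in KO_db/db. Every diabetic library therefore lay above every lean library in this sum, while the diabetic groups overlapped with each other. How common such a separation is over all genes was not counted, here or for the single members below. Zyx and Ldha carried most of the sum in KO_db/db mouse 1, and Zyx did so in the other diabetic libraries.

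**Figure D1:**
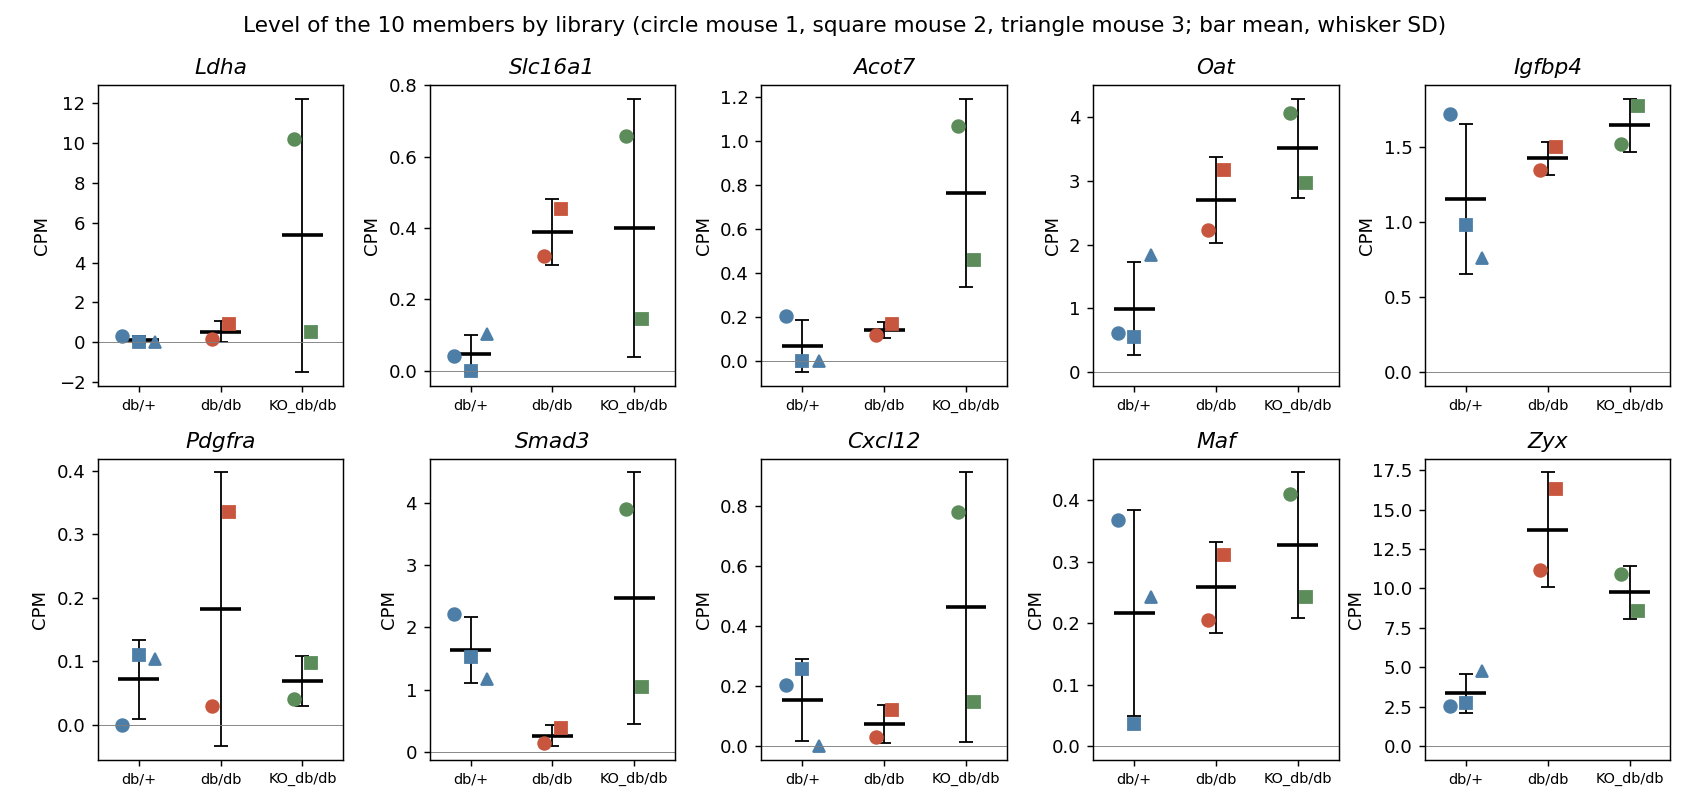
CPM of each of the 10 members (y axis, a separate linear scale per gene) in db/+, db/db and KO_db/db (x axis), with 1 point per library, the mean as a bar and the SD as a whisker that can reach below 0 where n is 2 or 3. Zyx is above 8 CPM in the 4 diabetic libraries and below 5 CPM in the 3 lean ones, Smad3 is lowest in db/db, and the high mean of Ldha in KO_db/db comes from mouse 1.

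Each pair of groups was compared with the quasi-likelihood test of edgeR, fitted to those libraries alone, and a gene was called when its p, Benjamini-Hochberg adjusted over all genes tested, was under 0.05. Fold changes are those of the group named before "against" over the other. In db/db against db/+, 6 of the 10 members had enough counts to be tested, 1 was called higher (Zyx) and 1 lower (Smad3). Of all 13406 genes tested there, 19.9% were called higher and 18.0% lower, so the counts of members called were near the background. Against the same db/+ libraries, 7 members were tested in KO_db/db and 3 were called higher (Ldha, Oat and Zyx), against 20.5% of all 13228 genes called higher and 17.9% called lower. Between KO_db/db and db/db, 8 members were tested and none was called by edgeR, and 2 of them had an unadjusted p under 0.05. There 0.126% of the 13486 genes were called higher and 0.193% lower, and without the filter on low counts edgeR called 2 members (Ldha and Smad3), while DESeq2 called 1 (Smad3). The median log2 fold change of the members tested was 0.86, 1.54 and 0.33 in the same order, beside 0.0064, -0.0034 and -0.0234 for all genes tested. Leaving out 1 library at a time, the first of these medians ran from 1.12 to 2.21, with 5 or 8 members past the filter in place of 6 (2.21 without db/+ mouse 3 and 1.89 without db/db mouse 1), the second rose to 2.24 without db/+ mouse 3, and the last fell to -0.09 without KO_db/db mouse 1. Both comparisons with db/+ share the 3 lean libraries, and their calls are not independent.

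**Figure D2:**
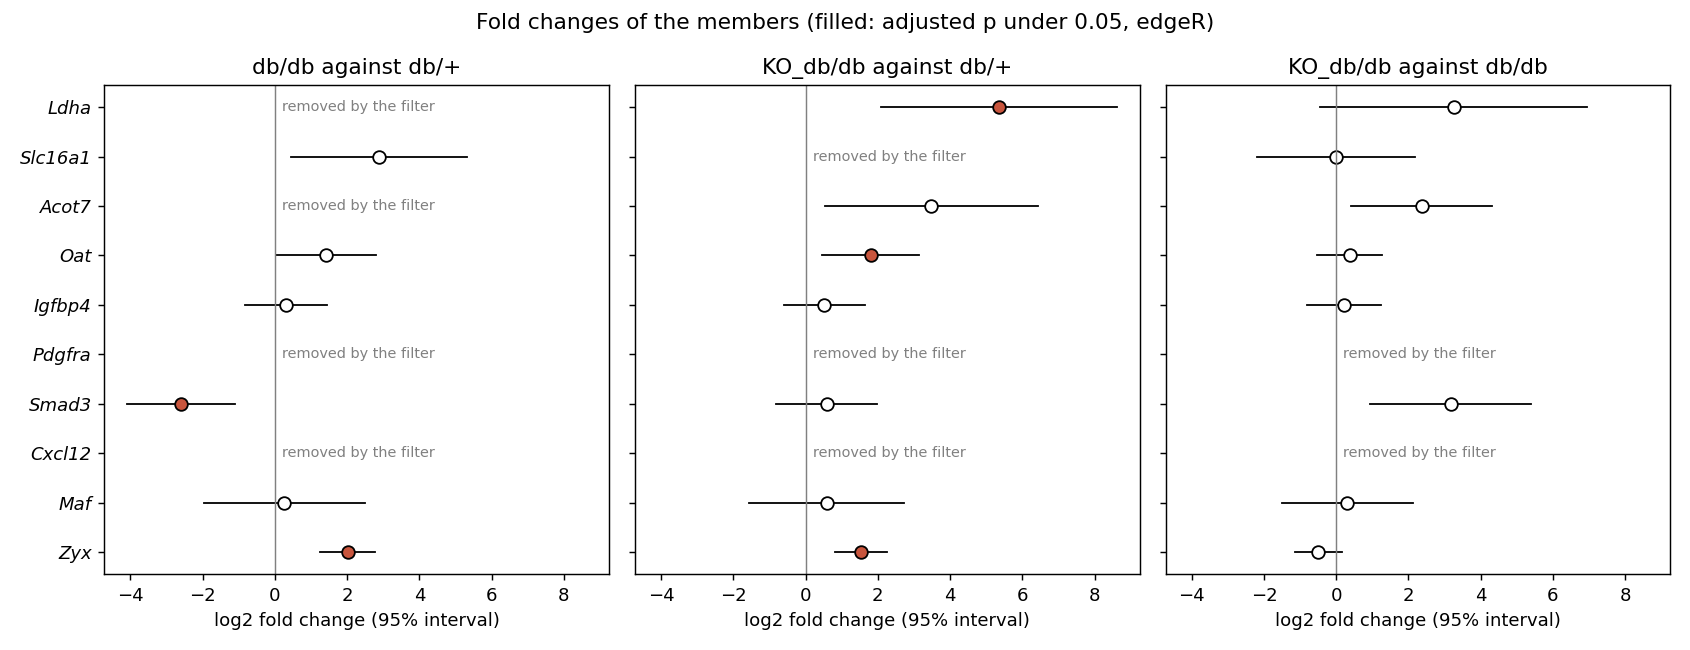
Log2 fold change of each member (x axis) with its 95% interval in the 3 comparisons (panels), the first group named over the second, where filled points had an adjusted p under 0.05 by edgeR and members removed by the filter on low counts are marked. Zyx is filled in both comparisons with db/+, Smad3 in db/db alone, Ldha and Oat in KO_db/db against db/+, and no point is filled in KO_db/db against db/db.

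Without KO_db/db mouse 1, the library with the most acinar RNA, 0 of the 7 members tested were called in KO_db/db against db/+ and their median was 1.35. Zyx then had a log2 fold change of 1.35 (adjusted p = 0.0557, edgeR), Oat 1.56 (adjusted p = 0.173) and Ldha 1.95 (adjusted p = 0.339). This fit held 1 KO_db/db library, which was assumed to vary as the db/+ libraries did, and it called 3060 genes in all where the complete set gave 5081.

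Ldha, the muscle-type subunit of lactate dehydrogenase (ENSMUSG00000063229.15, chromosome 7 of GRCm38, 46841475 to 46855627, plus strand), had 249 and 21 counts in KO_db/db, 6 and 38 in db/db, and 8, 1 and 1 in db/+. The levels were 10.2 and 0.510 CPM, 0.176 and 0.908 CPM, and 0.327, 0.0365 and 0.0346 CPM. Thus KO_db/db mouse 1 stood alone, db/db mouse 2 was above KO_db/db mouse 2, and the lowest db/db library was below the highest db/+ library. Against db/+, KO_db/db had a log2 fold change of 5.35 (standard error 1.37, adjusted p = 0.0225, edgeR), and Ldha was higher in 2 of 2 KO_db/db libraries than in all db/+ libraries. This call was lost without db/+ mouse 2 (adjusted p = 0.0780) and without db/+ mouse 3 (adjusted p = 0.0650) as well as without KO_db/db mouse 1. The value for KO_db/db against db/db was 3.25 (95% interval -0.45 to 6.95, adjusted p = 0.279, edgeR), and it was -0.10 without KO_db/db mouse 1. Ldha was removed by the filter in db/db against db/+. Its pooled counts of 44 and 10 gave a ratio of 4.68 with a 95% counting interval of 2.32 to 10.4, which covers counting error and not the spread between mice. Of the 31-base stretches of the longest coding transcript, 34.2% also occur in transcripts of 27 other genes, most often Gm5452 (15.1%), so that counts of Ldha may be divided among them.

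Slc16a1, the carrier MCT1 that moves lactate and pyruvate across the membrane (ENSMUSG00000032902.1, chromosome 3, 104638668 to 104658462, plus strand), had 16 and 6 counts in KO_db/db, 11 and 19 in db/db, and 1, 0 and 3 in db/+. These were 0.657 and 0.146 CPM, 0.323 and 0.454 CPM, and 0.0409, 0 and 0.104 CPM. Every diabetic library was above every lean library, in which the gene was at or below the detection floor. In db/db against db/+ the log2 fold change was 2.88 (standard error 1.02, 95% interval 0.45 to 5.31, adjusted p = 0.0647, edgeR), which missed the threshold and passed it without db/+ mouse 3 (adjusted p = 0.0492). Slc16a1 was removed by the filter in KO_db/db against db/+, where the pooled counts of 22 and 4 gave a ratio of 6.77 (95% counting interval 2.30 to 27.03). Between KO_db/db and db/db its log2 fold change was -0.01 (95% interval -2.20 to 2.17, adjusted p = 0.994, edgeR).

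The proximal promoters of these 2 genes are shown because both hold the E-box CACGTG, which contains ACGTG, the core of the hypoxia response element bound by HIF factors. The sequences are the 250 bases before the annotated start in RefSeq on GRCm38.p6, 5′ to 3′ on the strand of the gene, with each match to ACGTG or CACGTG on either strand in capitals. The Ldha promoter is that of the upstream of its 2 annotated starts (chr7:46845554-46845803, plus strand), and that of Slc16a1 is at chr3:104638414-104638663 (plus strand).
Ldha: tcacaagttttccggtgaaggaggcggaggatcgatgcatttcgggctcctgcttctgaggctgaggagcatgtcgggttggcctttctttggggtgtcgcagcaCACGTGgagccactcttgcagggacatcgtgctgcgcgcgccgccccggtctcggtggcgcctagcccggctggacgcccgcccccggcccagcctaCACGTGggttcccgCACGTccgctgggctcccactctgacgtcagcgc
Slc16a1: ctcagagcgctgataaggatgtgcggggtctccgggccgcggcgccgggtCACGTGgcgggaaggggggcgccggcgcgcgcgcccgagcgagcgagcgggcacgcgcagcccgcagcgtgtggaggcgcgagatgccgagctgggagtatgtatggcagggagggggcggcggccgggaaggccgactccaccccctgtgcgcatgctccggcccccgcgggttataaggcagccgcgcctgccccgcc
The Ldha window held 3 separate matches, at positions -145, -48 and -34 from the start, of which 2 were CACGTG. The Slc16a1 window held 1, at -200. Of 32851 promoters of the same length in the table, 16.6% held ACGTG and 6.02% CACGTG on either strand. Promoters of 9 of the 10 members were in the table, with 10 starts, and the other 8 starts had no match to ACGTG. None of the 10 starts held GTCTAGAC, a palindromic Smad element present in 0.167% of all promoters, or TGCTGAC, part of the Maf recognition element present in 3.81%. Such matches describe letters in the window and no binding was measured.

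The other lactate dehydrogenases and monocarboxylate carriers give the context for both genes. Ldhb, the heart-type subunit that favours lactate to pyruvate, was at 6.73 and 6.43 CPM in KO_db/db, 3.61 and 4.04 CPM in db/db, and 7.20 to 7.65 CPM in db/+, with no overlap between db/db and the other groups. It was lower in db/db than in db/+ by a log2 fold change of -0.97 (standard error 0.18, adjusted p = 0.00787, edgeR) and was not called in the other comparisons. Per kilobase, Ldhb stood at 5.69 CPM in db/+, 2.93 in db/db and 5.05 in KO_db/db, and Ldha at 0.0732, 0.299 and 2.96. Slc16a3, the lactate exporter MCT4 of glycolytic tissues, had 1 count in KO_db/db mouse 1 and 0 in every other library. Slc16a7, the carrier MCT2, ranged from 0.0692 to 2.09 CPM with overlapping groups and no call. Embigin (Emb), another partner of these carriers, was lower in db/db (log2 fold change -0.81, adjusted p = 0.00276, edgeR) and in KO_db/db (-0.82, adjusted p = 0.00710) than in db/+. Of the 5 genes of this list that were tested besides Ldha and Slc16a1, 2 fell in db/db, 1 fell in KO_db/db against db/+, and none was called between KO_db/db and db/db. Over all genes, 18.0% were called lower in db/db and 17.9% in KO_db/db against db/+.

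Acot7, which hydrolyses long-chain acyl-CoA and is best known in brain (ENSMUSG00000028937.14, chromosome 4, 152178134 to 152271855), had 26 and 19 counts in KO_db/db, 4 and 7 in db/db, and 5, 0 and 0 in db/+. Its levels were 1.07 and 0.461 CPM, 0.117 and 0.167 CPM, and 0.205, 0 and 0 CPM. Both KO_db/db libraries were above all others, and db/db and db/+ overlapped. The log2 fold change was 3.48 in KO_db/db against db/+ (standard error 1.24, 95% interval 0.53 to 6.43, adjusted p = 0.0648, edgeR) and 2.36 between KO_db/db and db/db (standard error 0.77, 95% interval 0.42 to 4.31, adjusted p = 0.187). The former passed the threshold without the filter on low counts (adjusted p = 0.0497) and without db/+ mouse 1 (adjusted p = 0.0265). Among 12 other acyl-CoA thioesterases, 9 were tested in db/db against db/+, of which 2 rose and 2 fell, and 8 in KO_db/db against db/+, of which 2 rose and 3 fell. Over all genes, 19.9% rose and 18.0% fell in the former comparison, and 20.5% rose and 17.9% fell in the latter. Acot13, a mitochondrial thioesterase, fell in both (log2 fold changes -1.63 and -1.07, adjusted p = 0.00190 and 0.00563, edgeR), and Acot8, a peroxisomal member, fell in db/db (-1.36, adjusted p = 0.00466). Acot8 was also called lower in KO_db/db against db/+, at 5.17 and 3.59 CPM beside 7.20 to 8.76 CPM in db/+. Acot1, a cytosolic thioesterase, was called in KO_db/db against db/+ (3.70, adjusted p = 0.0493, edgeR) with 4.43 CPM in mouse 1 and 0.364 CPM in mouse 2, and the latter value was below the 0.409 CPM of db/+ mouse 1. Acot1 was not called without KO_db/db mouse 1.

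Oat, ornithine aminotransferase of the mitochondrial matrix (chromosome 7, 132557478 to 132576398), was at 4.06 and 2.96 CPM in KO_db/db, 2.23 and 3.18 CPM in db/db, and 0.614, 0.547 and 1.83 CPM in db/+. Each diabetic library exceeded each lean library, and the 2 diabetic groups overlapped. Oat rose in KO_db/db against db/+ with a log2 fold change of 1.80 (standard error 0.56, adjusted p = 0.0426, edgeR), a call lost when either KO_db/db library, db/+ mouse 1 or db/+ mouse 2 was left out (adjusted p from 0.0815 to 0.173). The value for db/db against db/+ was 1.41 (standard error 0.58, 95% interval 0.04 to 2.79, adjusted p = 0.0967), 2.21 without db/+ mouse 3 (adjusted p = 0.0147), and 1.43 without the filter on low counts (adjusted p = 0.0491), where 3 members were called in all. Between KO_db/db and db/db the log2 fold change was 0.37 (95% interval -0.53 to 1.26, adjusted p = 0.579, edgeR). Of 10 other enzymes of ornithine, arginine and proline metabolism, 7 were tested against db/+ in each diabetic group, with 1 higher and 1 lower in db/db and 1 higher and 2 lower in KO_db/db. The shares over all genes were 19.9% higher and 18.0% lower in db/db, and 20.5% and 17.9% in KO_db/db. Arg1, arginase 1, which makes ornithine, was higher in both (log2 fold changes 1.71 and 1.06, adjusted p = 0.0101 and 0.0495, edgeR), the latter not without KO_db/db mouse 1. Aldh4a1, which oxidises the product of Oat to glutamate, was lower in db/db (-1.75, adjusted p = 0.0311), and Glul, glutamine synthetase, was lower in KO_db/db (-1.69, adjusted p = 0.00160). Glul was also below every db/+ library in db/db, at 449 and 216 CPM beside 519 to 709 CPM. There it missed the threshold (log2 fold change -0.935, adjusted p = 0.0520, edgeR).

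Zyx, zyxin, a LIM-domain protein of focal adhesions and stressed actin fibres (chromosome 6, 42349630 to 42360213, plus strand), was the member with the highest level. It was at 10.9 and 8.57 CPM in KO_db/db, 11.2 and 16.3 CPM in db/db, and 2.54, 2.74 and 4.78 CPM in db/+. All 4 diabetic libraries were above the 3 lean libraries, and both db/db libraries were above both KO_db/db libraries. Zyx rose 4.05-fold in db/db (log2 fold change 2.02, standard error 0.32, adjusted p = 0.00414, edgeR) and with a log2 fold change of 1.54 in KO_db/db (standard error 0.31, adjusted p = 0.00962) relative to db/+. In db/db against db/+ the adjusted p stayed under the threshold in each of the 11 alternatives run (highest 0.0203). Between the diabetic groups, KO_db/db over db/db, the log2 fold change was -0.50 (95% interval -1.15 to 0.15, adjusted p = 0.327, edgeR). Of the 31-base stretches of its transcript, 4.08% also lie in exons of Epha1 on the other strand, and whether the counting used strand is not given in the sources used here. Among 11 other zyxin family and focal adhesion genes, 9 were tested in each comparison, 4 rose and none fell against db/+ in db/db and likewise in KO_db/db, where 19.9% and 20.5% of all genes were called higher, and none was called between KO_db/db and db/db. Enah, an actin polymerase recruited by zyxin, and Actn1, an actin crosslinker, rose in db/db (log2 fold changes 0.56 and 0.44, adjusted p = 0.0163 and 0.0292, edgeR). Actn1 was also called higher in KO_db/db against db/+, at 41.5 and 41.0 CPM beside 28.5 to 33.4 CPM in db/+. Actn4, another crosslinker, was at 122 and 121 CPM in db/db and 90.0 to 98.2 CPM in db/+. Lpp, a zyxin relative, was at 54.8 and 63.0 CPM in db/db and 44.6 to 52.1 CPM in db/+. Both rose in KO_db/db against db/+ (log2 fold changes 0.77 and 0.70, adjusted p = 0.00170 and 0.00474, edgeR). Without KO_db/db mouse 1, Actn4 and Lpp were the 2 called there.

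Smad3, the transcription factor that carries TGF-β and activin signals to the nucleus (chromosome 9, 63646767 to 63757994, minus strand), went the other way in db/db. It was at 3.90 and 1.04 CPM in KO_db/db, 0.147 and 0.382 CPM in db/db, and 2.21, 1.53 and 1.18 CPM in db/+. Both db/db libraries lay below all others, and KO_db/db libraries lay above and below the db/+ libraries. Smad3 fell in db/db against db/+ with a log2 fold change of -2.60 (standard error 0.62, adjusted p = 0.0180, edgeR). The call was lost without db/db mouse 1 (-2.10, adjusted p = 0.0631) and without db/+ mouse 1 (-2.33, adjusted p = 0.0558). For KO_db/db against db/db it was 3.17 (standard error 0.89, 95% interval 0.94 to 5.41, adjusted p = 0.156, edgeR), which missed the threshold, while DESeq2 gave 3.21 (adjusted p = 0.00926) and edgeR without the filter 3.17 (adjusted p = 0.00838). Relative to db/+, the value in KO_db/db was 0.58 on the log2 scale (95% interval -0.82 to 1.99, adjusted p = 0.465, edgeR), and it turned to -0.64 without KO_db/db mouse 1.

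Of 16 other TGF-β ligands, receptors and SMADs, 12 were tested against db/+ in each diabetic group, of which 3 rose and 1 fell in db/db, and 5 rose and 1 fell in KO_db/db. Over all genes, 19.9% rose and 18.0% fell in db/db, and 20.5% rose and 17.9% fell in KO_db/db. Tgfb3, a TGF-β ligand, was at 7.75 and 5.28 CPM in db/db and 0.547 to 1.04 CPM in db/+ (log2 fold change 2.91, adjusted p = 0.00183, edgeR). Tgfbr1, the receptor kinase that phosphorylates Smad3, fell in db/db (-1.06, adjusted p = 0.00139). It was called lower in KO_db/db against db/+ as well, at 53.6 and 49.4 CPM beside 78.4 to 90.7 CPM in db/+. In KO_db/db the inhibitors Skil and Smad7 rose (1.22 and 1.07, adjusted p = 0.00291 and 0.0223, edgeR), and without KO_db/db mouse 1 Skil was called and Smad7 was not. The ligand gene Tgfb3 and Smad3 thus moved in opposite directions in db/db. The promoters of Zyx and Smad3, the 2 members called in db/db against db/+ and in opposite directions, are shown without capitals because none of the motifs searched was present. They lie at chr6:42349578-42349827 (plus strand) and chr9:63757995-63758244 (minus strand) of GRCm38.p6 in RefSeq, 5′ to 3′ on the strand of the gene.
Zyx: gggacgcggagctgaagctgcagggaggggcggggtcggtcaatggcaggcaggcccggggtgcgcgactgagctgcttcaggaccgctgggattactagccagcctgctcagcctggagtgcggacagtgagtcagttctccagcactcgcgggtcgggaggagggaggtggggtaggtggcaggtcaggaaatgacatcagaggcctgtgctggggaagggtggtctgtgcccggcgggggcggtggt
Smad3: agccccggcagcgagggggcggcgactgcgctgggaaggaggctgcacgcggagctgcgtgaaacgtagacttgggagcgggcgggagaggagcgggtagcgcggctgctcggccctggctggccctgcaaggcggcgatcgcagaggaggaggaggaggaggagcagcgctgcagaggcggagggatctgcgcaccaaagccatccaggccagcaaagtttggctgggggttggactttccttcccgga

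Igfbp4, a secreted protein that binds insulin-like growth factors, varied least over the libraries, at 1.52 and 1.77 CPM in KO_db/db, 1.35 and 1.50 CPM in db/db, and 1.72, 0.985 and 0.762 CPM in db/+. The db/+ range enclosed both db/db libraries and overlapped KO_db/db. Its log2 fold change was 0.30 in db/db (95% interval -0.84 to 1.43, adjusted p = 0.656) and 0.52 in KO_db/db (-0.59 to 1.63, adjusted p = 0.407) against db/+, and 0.20 between the diabetic groups (-0.82 to 1.23, adjusted p = 0.799, edgeR). Of 6 other IGF binding proteins 3 were tested against db/+ in each diabetic group, with 1 higher and 2 lower in db/db and 1 higher and 1 lower in KO_db/db. The shares over all genes were 19.9% higher and 18.0% lower in db/db, and 20.5% and 17.9% in KO_db/db. Igfbp3 was at 0.0819 CPM or lower in db/+ and at 1.35 and 2.84 CPM in db/db (log2 fold change 5.66, adjusted p = 0.00340, edgeR). It was called higher in KO_db/db against db/+ as well, at 0.698 and 0.534 CPM, but not without KO_db/db mouse 1. Igfbp5 was at 7.51 to 16.7 CPM in db/+, 0.704 and 0.645 CPM in db/db, and 1.35 and 1.48 CPM in KO_db/db. It fell in both diabetic groups (log2 fold changes -4.16 and -3.07, adjusted p = 0.00101 and 0.00204, edgeR).

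Maf, encoding the transcription factor c-Maf of α-cells and lymphocytes (chromosome 8, 115682942 to 115707794), had 10 and 10 counts in KO_db/db, 7 and 13 in db/db, and 9, 1 and 7 in db/+. All 3 groups overlapped, at 0.0365 to 0.410 CPM. Of its 31-base stretches, 7.88% occur in other genes, mainly the antisense gene Gm15655. Its log2 fold changes of 0.26, 0.58 and 0.30 in the order used above had 95% intervals from -1.96 to 2.73 at their outermost, and none was called. Mafa, the relative that mature β-cells use, was at 57.6 and 92.1 CPM in db/db and 327 to 422 CPM in db/+ (log2 fold change -2.38, adjusted p = 0.00109, edgeR), and at 385 and 381 CPM in KO_db/db. Its difference between KO_db/db and db/db was 2.35 (adjusted p = 0.0538, edgeR).

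Pdgfra and Cxcl12 were too low for a test in all 3 comparisons. Pdgfra, the receptor for PDGF-A that marks mesenchymal cells (chromosome 5, 75152292 to 75198215), had 1 and 4 counts in KO_db/db, 1 and 14 in db/db, and 0, 3 and 3 in db/+. Only db/db mouse 2 was well above the floor, at 0.334 CPM. That library also had the highest sum of 10 stellate and fibroblast markers, 5.14 CPM, where the other diabetic libraries had 2.17 to 4.05 CPM and db/+ had 0.365 to 2.04 CPM, and its part in the counts of Pdgfra was not tested. Pdgfrb, the related receptor of pericytes and stellate cells, had 0 to 12 counts per library. The ligand Pdgfb was at 4.58 and 2.27 CPM in db/db and 0.287 to 0.450 CPM in db/+ (log2 fold change 3.28, adjusted p = 0.00292, edgeR), and at 0.328 and 0.340 CPM in KO_db/db. Pdgfb in KO_db/db against db/db had a log2 fold change of -3.34 (adjusted p = 0.0847, edgeR).

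Cxcl12, the chemokine that retains CXCR4-bearing cells (chromosome 6, 117168535 to 117181367), had 19 and 6 counts in KO_db/db, 1 and 5 in db/db, and 5, 7 and 0 in db/+. KO_db/db mouse 1 was highest at 0.780 CPM, and the remaining libraries were at 0.255 CPM or lower. The pooled counts of KO_db/db and db/db, 25 and 6, gave a ratio of 4.83 (95% counting interval 1.93 to 14.4). Its receptor Cxcr4 had 0 to 11 counts per library. Dpp4, a protease that cuts Cxcl12, was the only gene of the 3 tested on that list, and it fell in db/db (log2 fold change -0.76, adjusted p = 0.00336, edgeR) and in KO_db/db (-0.76, adjusted p = 0.0136).

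Set against the mean of db/+ on the log2 CPM scale with a prior count of 2, KO_db/db mouse 1 was above it for 9 of the 10 members, KO_db/db mouse 2 for 9 and the db/db libraries for 7 and 9. The db/+ libraries themselves were above it for 7, 2 and 5 members, so counts of this kind vary widely among lean mice. No such count was made over all genes. For members near the floor, such as Pdgfra and Cxcl12, the prior count weighs on the difference. The median difference was 1.95 and 0.84 in KO_db/db and 0.45 and 1.44 in db/db. Both groups thus held 1 library with a larger and 1 with a smaller median. The largest rise in a library was 6.04, for Ldha in KO_db/db mouse 1, and the largest fall -2.98, for Smad3 in db/db mouse 1.

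**Figure D3:**
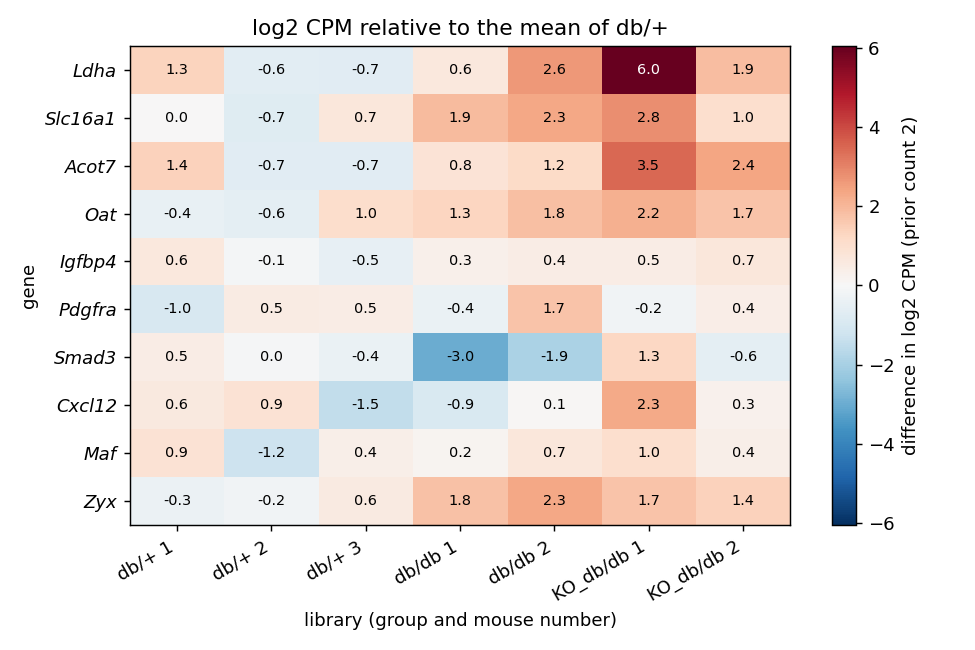
Difference in log2 CPM (prior count 2) of each member (rows) in each of the 7 libraries (columns) from the mean of the 3 db/+ libraries, as a colour scale with the value printed in each cell. Zyx, Oat and Slc16a1 are above 1 in all 4 diabetic libraries, and Oat is also above 1 in db/+ mouse 3. Smad3 is lowest in both db/db libraries and also below 0 in KO_db/db mouse 2 and db/+ mice 2 and 3. Ldha in KO_db/db mouse 1 is the strongest cell.

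The members were next set beside the acinar share, since it was unequal between libraries. Ldha and Smad3 were highest in KO_db/db mouse 1, with 9.89% acinar counts, and so were Acot7, Slc16a1, Oat, Cxcl12 and Maf. KO_db/db mouse 2, at 1.07%, had 0.510 CPM of Ldha, below the 0.908 CPM of db/db mouse 2 at 0.0238%. Zyx was highest in db/db mouse 2, at 16.3 CPM and 0.0238%, and Zyx and Slc16a1 were above every db/+ library in both db/db libraries, whose acinar share was at most 0.0362%. The part of the acinar RNA in the KO_db/db values was not tested. Ductal markers were unequal between the groups as well, and not all in the same direction. Of 8, 7 were tested in KO_db/db against db/+, with 4 higher and 1 lower (median log2 fold change 2.45), and 5 in db/db against db/+, with 3 higher and 1 lower. The shares over all genes were 20.5% and 19.9% higher and 17.9% and 18.0% lower. The summed ductal level was 296 to 439 CPM in the diabetic libraries and 210 to 236 CPM in db/+. Most of it was Krt7, at 247 to 326 CPM and 174 to 192 CPM. Tspan8 was lower in db/db, at 5.60 and 6.52 CPM, than in db/+, at 21.5 to 33.7 CPM. The ductal keratin gene Krt19 was at 9.36 and 0.534 CPM in KO_db/db, 0.176 and 1.22 CPM in db/db, and 0.620 to 1.00 CPM in db/+. The 4 diabetic libraries stood in the same order as for Ldha, but KO_db/db mouse 2 and db/db mouse 1 lay below every db/+ library. Muc1, a mucin of ducts, was at 23.2 CPM in KO_db/db mouse 1 and at 1.70 CPM or lower in the others. Of 10 endothelial markers, 7 were tested against db/+ in each diabetic group, with 2 higher and none lower in db/db and 2 higher and 1 lower in KO_db/db. The shares over all genes in those comparisons are given above. Flt1, a VEGF receptor, was at 1.07 and 1.43 CPM in KO_db/db, 0.558 and 1.89 CPM in db/db, and 0.146 to 0.242 CPM in db/+. The summed endothelial level, 14.6 to 53.5 CPM, was highest in db/+ mouse 3, where Pecam1 alone gave 45.3 CPM. The sum of 10 macrophage markers was 22.8 to 76.2 CPM, highest in db/db mouse 1. Krt7, Tspan8, Krt19, Muc1, Flt1 and Pecam1 were named after their values were seen, and the part of ductal and endothelial RNA in the members' values was not tested. Fewer or more cells of a type and less or more RNA per cell cannot be told apart in these sorted bulk samples.

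**Figure D4:**
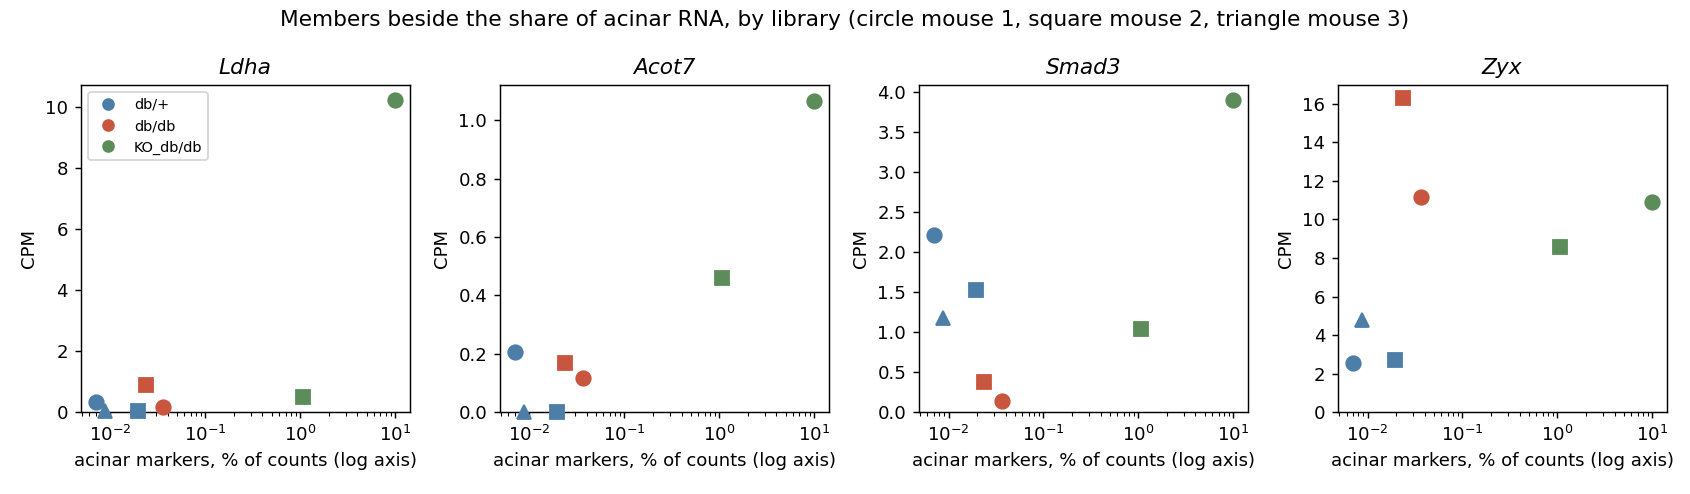
CPM of Ldha, Acot7, Smad3 and Zyx (y axes, linear) against the share of counts from 20 acinar markers (x axis, log scale, in percent), with 1 point per library coloured by group. KO_db/db mouse 1, at 9.89%, holds the highest Ldha, Acot7 and Smad3, whereas the highest Zyx is in db/db mouse 2 at 0.0238%.

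A wider list of 18 genes described as low in β-cells was followed in the same fits. Of these, 9 were tested in db/db against db/+, 2 rose and none fell, with a median log2 fold change of 0.68, a share near the 19.9% of all genes called higher. The 2 were Itih5, a hyaluronan-binding matrix protein, with a log2 fold change of 2.69 (adjusted p = 0.0369, edgeR), and Parp3, an ADP-ribosyltransferase of DNA repair, with 1.46 (adjusted p = 0.0300). KO_db/db was compared with db/+ for 12, of which 5 rose (Arap2, Cat, Itih5, Tns1 and Zfp36l1) and none fell, with a median of 1.55, where 20.5% of all genes were called higher and 17.9% lower. Zfp36l1, which promotes decay of AU-rich mRNAs, was at 3.98 and 1.60 CPM in KO_db/db and 0.109 to 0.491 CPM in db/+ (3.37, adjusted p = 0.0111, edgeR). Tns1, the focal adhesion protein tensin 1, was at 5.13 and 2.67 CPM in KO_db/db and 0.532 to 0.693 CPM in db/+ (2.68, adjusted p = 0.00387, edgeR). Without KO_db/db mouse 1 only Tns1 was called. For KO_db/db against db/db 14 were tested and none was called by edgeR, with 2 at an unadjusted p under 0.05, and the median of 1.09 became 0.05 without KO_db/db mouse 1. Hk1, the high-affinity hexokinase that β-cells replace by glucokinase, had 19 counts in KO_db/db mouse 1 and 2 to 6 in the others. Rest, a repressor of neuronal genes, had 28 and 8 counts in KO_db/db, 4 and 16 in db/db, and 1, 0 and 4 in db/+.

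The genes with the profile most like that of Ldha over the 7 libraries, by Pearson's r of log2 CPM among 7651 well-expressed genes, were Pgap3 (0.996), Mcrs1 (0.986) and Ss18 (0.967). Their levels varied far less than that of Ldha, from 17.5 to 21.1 CPM for Pgap3 and from 14.7 to 25.2 CPM for Mcrs1. For Slc16a1 they were Atp1b1 (0.977), Ddit4 (0.972) and Nol6 (0.971). Ddit4, a stress-induced inhibitor of mTORC1, was at 78.8 and 32.4 CPM in KO_db/db, 45.0 and 60.7 CPM in db/db, and 18.1 to 23.6 CPM in db/+. Among the members themselves, the closest to Ldha was Acot7 (0.914) and the closest to Slc16a1 was Zyx (0.921). These values describe 7 libraries that fall into 3 groups and share libraries and depth. Without KO_db/db mouse 1, r was 0.987, 0.954 and 0.909 for the 3 genes nearest to Ldha. All these genes were picked for the highest r among 7651 over the same libraries, so high values follow in part from the choice. The values without KO_db/db mouse 1 reuse the other libraries of that choice and are no separate check. Counts were also low, at 0 to 19 for Slc16a1 and 1 to 38 for Ldha outside KO_db/db mouse 1.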

How the data were processed

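Islets were isolated with collagenase, β-cells were sorted, and poly-A RNA was sequenced, with 1 library per mouse. The authors deposited estimated counts per gene from kallisto 0.44.0 on GRCm38 as whole numbers without scaling (bcl2fastq 2.19 per the labels), and the annotation release is not given in the sources used here. Groups follow the sample labels, and 0 columns were left unused. Replicates differed by more than sampling noise.

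In R 4.3.3, each pair of groups was fitted with edgeR 4.0.16 on its own libraries (filterByExpr with minimum count 10, TMM scaling, quasi-likelihood test, Benjamini-Hochberg adjustment over all genes tested, threshold 0.05). The standard error is the fold change over the root of F, and intervals are 95%. CPM used TMM factors over all 7 libraries. P-values judge a difference between groups against the spread between mice, which was pooled over both groups and moderated over genes. With 2 or 3 mice per group that spread is poorly known for any 1 gene. The depth limits what can be seen to about 3 counts, which covers counting error only. DESeq2 1.42.0, RLE scaling, no filter, all libraries in one fit, a mouse-number block, scaling without acinar and Reg genes, a threshold of 0.01 and leaving out each library were the alternatives. The fits were tried on simulated counts with a single fixed dispersion and no unequal acinar RNA, where they recovered 190 to 195 of 200 changed genes. This does not show how they perform at the spread of these libraries.

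Coordinates are from GENCODE vM21 (34222 of 35013 symbols matched) and promoters from RefSeq GRCm38.p6. Named genes are the 10 members, in each role list and comparison the 2 called genes with the largest fold change and at least 1 CPM in a group, Ldhb, Slc16a3, Slc16a7, Hk1, Rest, Pdgfrb, Cxcr4 and Mafa, and the 3 genes nearest to Ldha and to Slc16a1; 1 further gene of the rule is not reported here. The members and lists were chosen with earlier results of these data known.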

Additional observations from a re-analysis of the deposited data

How the results depend on the processing

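Zyx in db/db against db/+ kept its direction and its call under every alternative run. Of 216 comparisons of a member's fold change with an alternative, 191 kept direction and side of the threshold. For db/db against db/+, leaving out a library gave 1 to 4 members called and a median log2 fold change of the members between 1.12 and 2.21, and an adjusted p under 0.01 left 1 called. For KO_db/db against db/+ this gave 0 to 3 called and a median between 1.35 and 2.24, and an adjusted p under 0.01 left 1. In KO_db/db against db/db no member was called when a library was left out, the median then lay between -0.0936 and 0.70, DESeq2 called 1 member and edgeR without the filter 2. Signs turned for Smad3 in KO_db/db against db/+ without KO_db/db replicate 1 (range without a library -0.64 to 1.25), and there between KO_db/db and db/db for Ldha (-0.10 to 4.88) and Maf (-0.0936 to 0.66). Slc16a1 in that comparison turned from -0.01 to 0.0281 with DESeq2, and without a library it ranged from -1.40 to 0.75. The cause was not tested in any of these. Where 1 library was left in a group, it was assumed to vary like the other group. No label pairs the samples by mouse number. Deviations of libraries with the same number had correlations between -0.10 and 0.08, and those with different numbers between -0.08 and 0.10. In a group of 2 libraries the deviations mirror each other, so these values cannot show whether samples were paired. With the mouse number as a replicate block, edgeR called 3 members in db/db against db/+, Oat among them (log2 fold change 2.187, adjusted p = 0.0168), 3 for KO_db/db against db/+ and 0 for KO_db/db against db/db. Calls over all genes in KO_db/db against db/db were 43, but 22 with that block, 1374 with DESeq2, 1570 without the filter, 818 in a fit of all 7 libraries, 0 to 225 without a library and 0 at an adjusted p under 0.01. Over all genes, db/db and KO_db/db against db/+ gave 5069 and 5081 calls, 2479 and 2394 at an adjusted p under 0.01, and 3331 to 4394 and 3060 to 4725 without a library. For members near 3 counts the depth limits any statement.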
